A study of Homo sapiens with 24 samples.

Results

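Cells given the PI3 kinase and mTOR inhibitor PI103 together with the MEK inhibitor PD0325901 were compared with cells given PI103 alone. The cells were AGS, a long-established line from a human adenocarcinoma of the stomach, labelled WT, and RNA was harvested after 24 h. The groups were taken from the sample titles and hold 4 biological replicates each, 8 of the 24 libraries of the series, with the replicate number given as the batch in the labels. PI103 alone was used at 0.7 µM, whereas the combination held PI103 at 0.35 µM and PD0325901 at 0.0175 µM, since every inhibitor was given at 50% of its full concentration when combined. The comparison therefore added PD0325901 and lowered PI103 at once, and these changes cannot be told apart. The untreated control (labelled "none", vehicle not stated) and PD0325901 alone at 0.035 µM are given beside single genes as reference levels, with 4 replicates each. Of 23368 genes in the table, 13947 passed the filter on low counts and were tested.

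Class I PI3 kinases make a lipid signal at the plasma membrane that activates AKT, and mTOR couples AKT and nutrient signals to protein synthesis, nucleotide synthesis and cell growth. MEK is the kinase that activates ERK in the RAS-RAF-MEK-ERK cascade. Active ERK phosphorylates ETS and other transcription factors, which switch on immediate-early genes such as EGR1 and FOS, and it also induces its own inhibitors, among them the phosphatase DUSP6 and the Sprouty proteins. In epithelial cancers both cascades run downstream of receptor tyrosine kinases, and inhibiting either is known to release feedback on the other.

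Libraries held 57.2 to 65.1 M counts in genes with PI103 and 48.2 to 74.9 M with the combination. Reads assigned to no feature made up 5.84% to 7.02% of the tallied reads with PI103 and 7.04% to 7.82% with the combination, ranges that do not overlap. All 8 epithelial markers that were looked up (EPCAM, KRT8, KRT18, KRT19, CLDN18, GATA6, CLDN4 and CDH17) passed the filter. They summed to 6170 to 7030 counts-per-million (CPM) with PI103 and 5870 to 7480 CPM with the combination. The leukocyte markers PTPRC, CD3E and CD14 reached at most 9 counts in any library, the endothelial markers PECAM1, CDH5, KDR and CLDN5 at most 10, and the fibroblast markers COL1A2, DCN and THY1 at most 1. The 2 of 6 leukocyte markers that passed the filter, CD68 and LYZ, summed to 188 to 335 CPM with PI103 and 293 to 468 CPM with the combination. The 4 of 7 fibroblast markers that passed summed to 32.3 to 34.4 CPM and 21.8 to 25.7 CPM, and their part in the results was not tested. Replicate 2 of the combination stood apart from the other 3. On the first principal component of the 8 libraries, which held 68.3% of the variance, it lay at 63.2, against 26.2 to 32.4 for the other combination libraries and -39.6 to -33.1 for PI103. Its values are therefore given apart where they move a result. Counts of called members of a gene list are repeated without it where they change.

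The combination separated from PI103 across a large share of the genes. Of the 13947 genes tested, 5391 (38.7%) differed at an adjusted p under 0.05, of which 2616 (18.8% of those tested) were higher and 2775 (19.9%) lower in the combination. The 4 libraries of one group all lay above the 4 of the other in 5365 genes (38.5%), higher in the combination in 18.4% and lower in 20.1% of those tested. The median log2 fold change over all tested genes was -0.00867. Most differences were modest, with a median absolute log2 fold change of 0.519 among the genes called. Large differences were mainly rises: 779 of the called genes were higher by at least 1 on the log2 scale and 304 were lower by that much, and at a difference of at least 2 the counts were 263 and 88. Without replicate 2 of the combination 3934 genes were called, 1934 higher and 2000 lower.

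The 12 largest falls included transcription factors, a claudin, a receptor and a focal adhesion gene. ETV4, an ETS transcription factor of the PEA3 subfamily (chr17:43527844-43579620, GRCh38), stood at 83.8, 81.3, 75.1 and 80.0 CPM in the 4 PI103 libraries and at 1.53, 0.101, 1.04 and 0.808 CPM in the combination. The lowest PI103 library thus lay far above the highest combination library, and ETV4 was 92.1-fold lower in the combination (log2 fold change -6.47, SE 0.44, adjusted p 3.04e-10, edgeR's quasi-likelihood test, which gives every adjusted p here). CLDN2, a pore-forming claudin of tight junctions (chrX:106900164-106930861), fell by 5.60 on the log2 scale (SE 0.37, adjusted p 1.8e-11), from 4.78 to 5.45 CPM with PI103 to 0.0336 to 0.159 CPM. TLR4, the receptor for bacterial lipopolysaccharide (chr9:117704175-117724730), fell by 4.43 (SE 0.32), from 77.5 to 89.3 CPM to 1.13 to 5.28 CPM. TNS4, a focal adhesion adaptor of the tensin family (chr17:40475828-40501597), was held within 490 to 499 CPM in the PI103 libraries and stood at 63.4, 15, 47.8 and 48.4 CPM in the combination, a fall of 3.50 (SE 0.37). In each of these genes replicate 2 held the lowest combination value. Other members of the 12 largest falls were the RAC activator TIAM1 (-3.22), the phosphatase UBASH3B (-3.69), the membrane protein TMEM156 (-3.82) and PLAT, which encodes tissue plasminogen activator (-2.61). The list closes with DUSP6, EGR1, ETV5 and SPRY4, described below with the ERK pathway.

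Among the 12 largest rises were several genes that PI103-treated cells held at low levels. DMBT1, a secreted scavenger receptor of mucosal surfaces (chr10:122560665-122643736), had 4 counts in all 4 PI103 libraries and 1680 in the combination, a ratio of 395 (95% exact counting interval 154 to 1450). Its combination levels were 5.03, 14.0, 3.44 and 4.12 CPM. MPP1, a membrane palmitoylated scaffold protein (chrX:154778684-154821007), rose 39.6-fold, from 0.169 to 0.309 CPM to 4.71, 13.9, 7.06 and 7.82 CPM (log2 fold change 5.30, SE 0.36, adjusted p 8.22e-11). PAGE4, a cancer/testis family gene on the X chromosome, rose from 11.8 to 22.2 CPM to 134 to 219 CPM (3.54, SE 0.27), and TNNT2, the cardiac troponin T gene, from 0.840 to 1.20 CPM to 9.52 to 19.3 CPM (3.68, SE 0.23). No library of the PI103 group reached any combination library in these genes. The cytidine deaminase family gene APOBEC2 rose by 3.58, the lactate transporter SLC5A12 by 3.70 and MIA2 by 3.44. Replicate 2 of the combination was far above the other 3 in PDZK1IP1, which rose by 4.41 with it and 3.61 without it, in MSMB (3.79 and 3.12) and in CYP1A1 (4.69 and 3.74), and DMBT1 rose by 7.83 without it. The interferon-inducible genes CXCL10 and BST2 completed the 12.

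The feedback inhibitors of ERK signalling DUSP6, SPRY4 and SPRED1 fell in the combination, while DUSP1, SPRY1 and SPRY2 were not called. DUSP6, the cytoplasmic phosphatase that removes the activating phosphates from ERK (chr12:89347232-89353271), stood at 57.7, 44.5, 47.4 and 46.6 CPM with PI103 and at 4.63, 1.63, 4.31 and 5.01 CPM in the combination. The groups do not overlap, and DUSP6 was 12.6-fold lower (log2 fold change -3.65, SE 0.31, adjusted p 4.43e-09). DUSP4, its nuclear relative, fell from 384 to 443 CPM to 69.3 to 153 CPM (-1.80, SE 0.18), and DUSP2 fell by 1.16. DUSP8, which acts mainly on the stress kinases JNK and p38, rose by 0.75 (SE 0.15). Of the 8 MAP kinase phosphatases tested, 4 fell and 2 rose, against 19.9% and 18.8% of all genes. Without replicate 1 or 2 of the combination, or replicate 2, 3 or 4 of PI103, 1 was called higher. Annotated antisense exons cover 40.5% of the DUSP6 exon bases, and whether reads were counted by strand is not stated.

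SPRY4, a Sprouty protein that blocks the receptor-to-RAS step (chr5:142310427-142326455), was at 19.4, 17.8, 17.2 and 18.0 CPM with PI103 and at 3.59, 0.790, 3.01 and 3.56 CPM in the combination. It fell by 2.72 (SE 0.28, adjusted p 6.79e-08). SPRED1, which recruits the RAS inactivator neurofibromin to the membrane, fell by 2.27 (SE 0.26) from 67.2 to 88.2 CPM to 6.45 to 20.9 CPM, and SPRED2 fell by 0.64 (SE 0.17). These 3 were the members that fell, of 6 tested. SPRED3 had 7 counts over the PI103 libraries and 39 over the combination, a ratio of 5.25 (95% exact counting interval 2.32 to 13.9), and was called higher. SPRY1 and SPRY2, at -0.04 and -0.03, were not called.

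Of 12 ETS factors tested, 7 fell and 1 rose, against 19.9% and 18.8% of all genes. Besides ETV4, the PEA3 subfamily members ETV5 and ETV1 were much lower. ETV5 (chr3:186046308-186110318) held 50.3, 51.3, 50.2 and 46.0 CPM with PI103 and 9.47, 0.941, 6.03 and 7.29 CPM in the combination (-3.05, SE 0.48, adjusted p 5.68e-05). ETV1 fell by 4.20 (SE 0.34) from a low level, 1.89 to 2.46 CPM, to 0.0672 to 0.188 CPM, and ETS1 fell by 1.28 (SE 0.16). The epithelial ETS factor ELF3 was the member called higher, at 0.32, and its call was lost when any library other than replicate 3 or 4 of the combination was left out. The median of the list was -0.392, or -0.327 without replicate 2 of the combination.

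Immediate-early genes showed the same direction, with 12 of 24 tested members lower and 2 higher (19.9% and 18.8% of all genes), and a median of -0.392. EGR1, the zinc-finger factor induced within minutes of ERK activation (chr5:138465490-138469315), was at 22.7, 12, 8.37 and 10.7 CPM with PI103 and at 2.29, 0.806, 1.75 and 1.43 CPM in the combination. PI103 replicate 1 was the highest, and no value of the groups overlapped (-3.07, SE 0.50, adjusted p 7.27e-05). FOSL1, the AP-1 subunit FRA1, fell by 2.38 (SE 0.26) from 14.7 to 20.2 CPM to 1.53 to 4.71 CPM, and KLF4 fell by 1.00 (SE 0.15). EGR2 had 74 counts over the PI103 libraries and 3 in the combination, a ratio of 26.2 (8.62 to 130). MYC, the growth-promoting transcription factor, moved little, from 133 to 153 CPM with PI103 to 98.3 to 126 CPM in the combination. The MYC log2 fold change was -0.36 (SE 0.11, adjusted p 0.0153), and without replicate 2 of the combination its adjusted p was 0.0655. Leaving that library out, 9 members were lower and 0 higher, and the 2 rises were lost likewise without replicate 1 of the combination or replicate 1, 3 or 4 of PI103, and 1 was lost without replicate 2 of PI103.

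**Figure D1:**
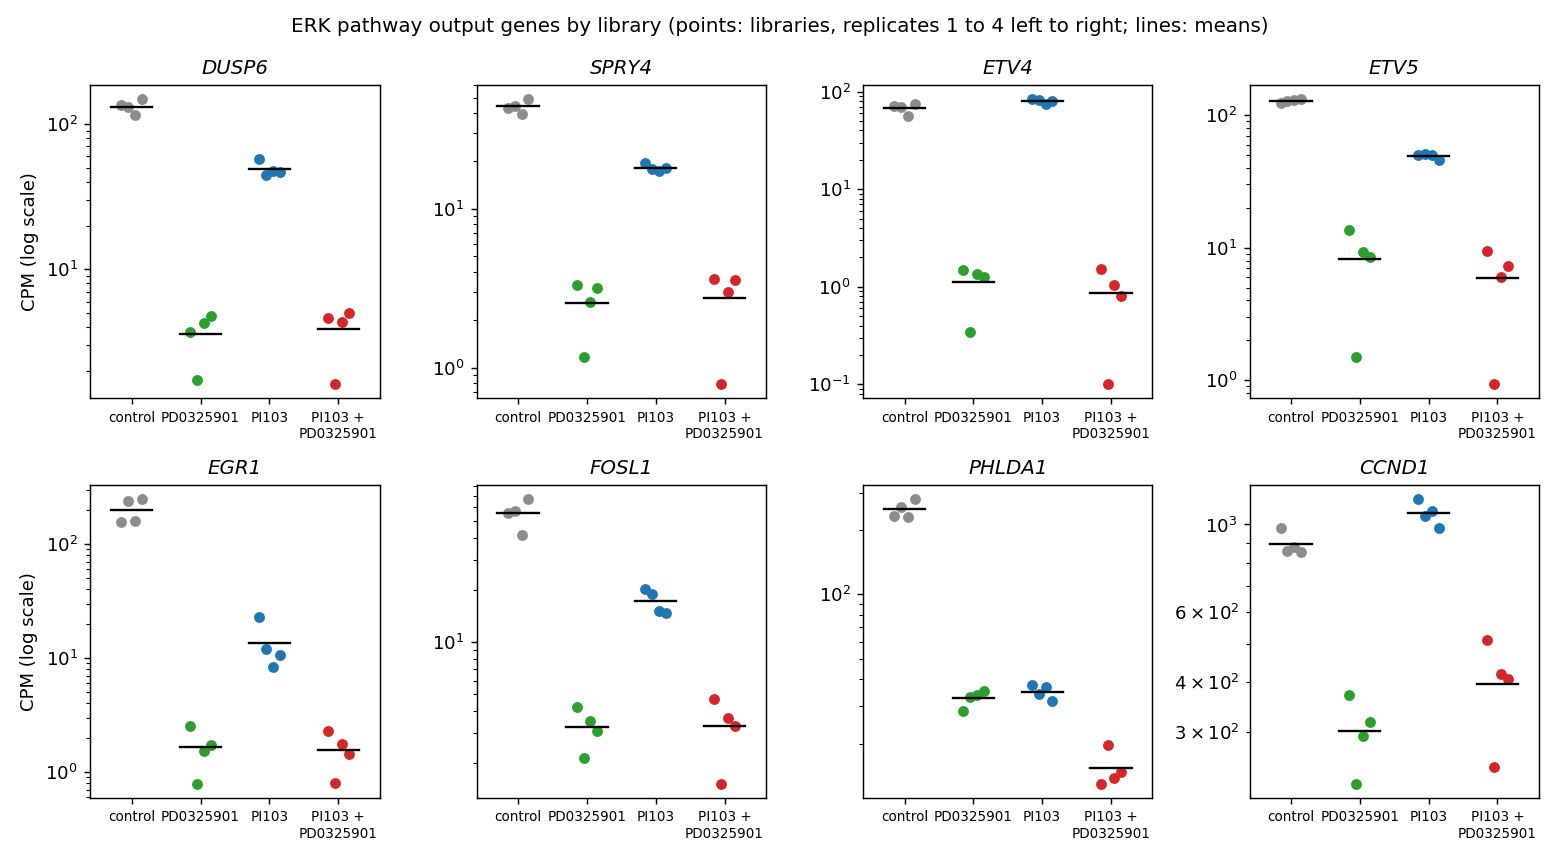
Levels of 8 genes of ERK output in counts-per-million on a log axis. Points are the 4 libraries of each group, replicates 1 to 4 from left to right, and lines are group means. In DUSP6, SPRY4, ETV4, ETV5, EGR1 and FOSL1 every combination library lies below every PI103 library. In PHLDA1 it lies below the PI103 libraries as well, at 13.0 to 19.6 CPM against 31.7 to 37.6.

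Set beside the other groups of the series, which share the control and PD0325901 libraries, several of these genes were near their level with PD0325901 alone. DUSP6 had a mean of 132 CPM in control, 3.6 CPM with PD0325901 and 3.90 CPM in the combination, and the difference between the combination and PD0325901 was 0.11 (SE 0.30, adjusted p 0.838). The same difference was 0.10 (adjusted p 0.845) for SPRY4, 0.04 (0.934) for FOSL1 and -0.03 (0.974) for EGR1. A p that misses the threshold does not show equal levels, and the SE for EGR1 was 0.55. ETV1, at low means of 0.115 CPM in the combination and 0.0392 CPM with PD0325901, was higher in the combination (1.51, adjusted p 0.0462). MYC was also higher in the combination than with PD0325901 (0.32, adjusted p 0.049). PHLDA1, a pleckstrin-homology protein induced by growth factors, was lower: it averaged 250 CPM in control and 32.6 CPM with PD0325901, and stood at 13.0, 19.6, 13.8 and 14.8 CPM in the combination. It was lower than with PI103 (-1.20, SE 0.15, adjusted p 6.7e-07) and lower than with PD0325901 (-1.09, adjusted p 1.61e-05). PI103 alone had already lowered EGR1 against control, by 3.90 on the log2 scale, and PHLDA1 by 2.84.

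The serum response element, or CArG box, is the site bound by SRF, the partner of the ERK-phosphorylated ETS factors at immediate-early promoters. It was found by its consensus, on either strand, in the 250 bases upstream of 2 of 18 immediate-early genes with a RefSeq promoter entry (11.1%, EGR1 and SRF), in 312 of 27305 promoters of all genes (1.14%) and in 1.05% of those of the genes tested. The window of EGR2, which fell by 4.49 from a lower level, held 0 matches. The EGR1 upstream sequence is shown because EGR1 had the largest fall of the listed immediate-early genes above 5 CPM. It is the plus strand of chr5:138465229-138465478 (RefSeq, GRCh38.p14), with the matches in capitals, starting 105 and 83 bases before the RefSeq start of the gene, which directly follows the stretch.
EGR1: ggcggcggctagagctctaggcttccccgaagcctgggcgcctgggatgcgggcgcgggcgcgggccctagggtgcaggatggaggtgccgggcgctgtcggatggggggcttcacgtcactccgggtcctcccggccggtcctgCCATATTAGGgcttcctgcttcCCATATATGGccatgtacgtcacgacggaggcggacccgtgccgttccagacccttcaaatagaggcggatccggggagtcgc
A match is a description of letters, not evidence of binding in these cells.

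Receptors and adaptors upstream of RAS fell more often than they rose, with 7 of 17 tested members lower and 1 higher, a share of 47.1% called against 38.7% of all genes (median -0.294), or 2 higher without replicate 4 of the combination or replicate 2 of PI103. ERBB3, the kinase-impaired receptor that couples strongly to PI3 kinase, was at 84.8 to 92.2 CPM with PI103 and 58.5 to 66.0 CPM in the combination (-0.50, SE 0.09, adjusted p 7.71e-05). PI103 alone had raised ERBB3 by 1.12 against control. The insulin receptor substrate IRS1 fell by 0.69 (SE 0.12), from 79.5 to 84.7 CPM to 40.6 to 58.3 CPM, and the receptor AXL by 1.28 (SE 0.22). GAB1, a docking protein that links receptors to PI3 kinase and RAS, was the member that rose, from 52.0 to 60.6 CPM to 90.6 to 102 CPM (0.79, SE 0.12, adjusted p 1.43e-05). INSR (-0.17) was not called. Of 5 EGFR family ligands tested, HBEGF rose by 0.57 (SE 0.14), from 8.46 to 10.7 CPM to 13.3 to 16.1 CPM, still below its control mean of 84.4 CPM. NRG4 had 2 counts over the PI103 libraries and 67 over the combination, a ratio of 31.5 (8.40 to 266). Of the NRG4 exon bases, 38.1% have antisense annotation, so its counts are uncertain. TGFA (-0.12) and EREG (0.70) were not called.

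Among 27 tested kinases of both cascades and their partners, 4 rose and 5 fell, a share of 33.3% that is near the 38.7% of all genes. The 4 rises were all in class I PI3 kinase subunits, and 6 members rose with the batch as a block. The regulatory subunit PIK3R3 rose from 1.60 to 2.57 CPM to 4.57 to 8.57 CPM (1.54, SE 0.22, adjusted p 5.46e-06). PIK3R1 rose by 0.41 (SE 0.09), PIK3R2 by 0.40 (SE 0.09) and the catalytic subunit PIK3CD by 0.87 (SE 0.20). In PIK3CD the groups overlapped. An overlapping transcript on the same strand shares 87.2% of the exon bases of PIK3R2, so its counts are uncertain. The 5 falls, HRAS, MLST8, RPS6KB1 and AKT2 among them, lay between -0.41 and -0.20, and 3 were left without replicate 2 of the combination or without replicate 2 of PI103. FOXO factors are transcription factors that AKT keeps out of the nucleus. Of 17 FOXO and PI3 kinase feedback genes, 4 fell and 1 rose, a share of 29.4%. FOXO1 itself fell from 14.4 to 15.9 CPM to 8.60 to 10.5 CPM (-0.70, SE 0.11), while the muscle ubiquitin ligase TRIM63 rose by 1.37 (SE 0.30). The calls of BCL6 (-0.56) and CDKN1B (-0.20, adjusted p 0.04999) were lost when single libraries were left out. Without replicate 2 of the combination, or replicate 1 or 3 of PI103, 2 falls were called, and without replicate 3 or 4 of the combination 2 rises. The FOXO target BCL2L11, which encodes the death activator BIM, did not pass the test at 35.3 to 38.1 CPM with PI103 and 35 to 43.7 CPM in the combination (0.08, adjusted p 0.606).

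**Figure D2:**
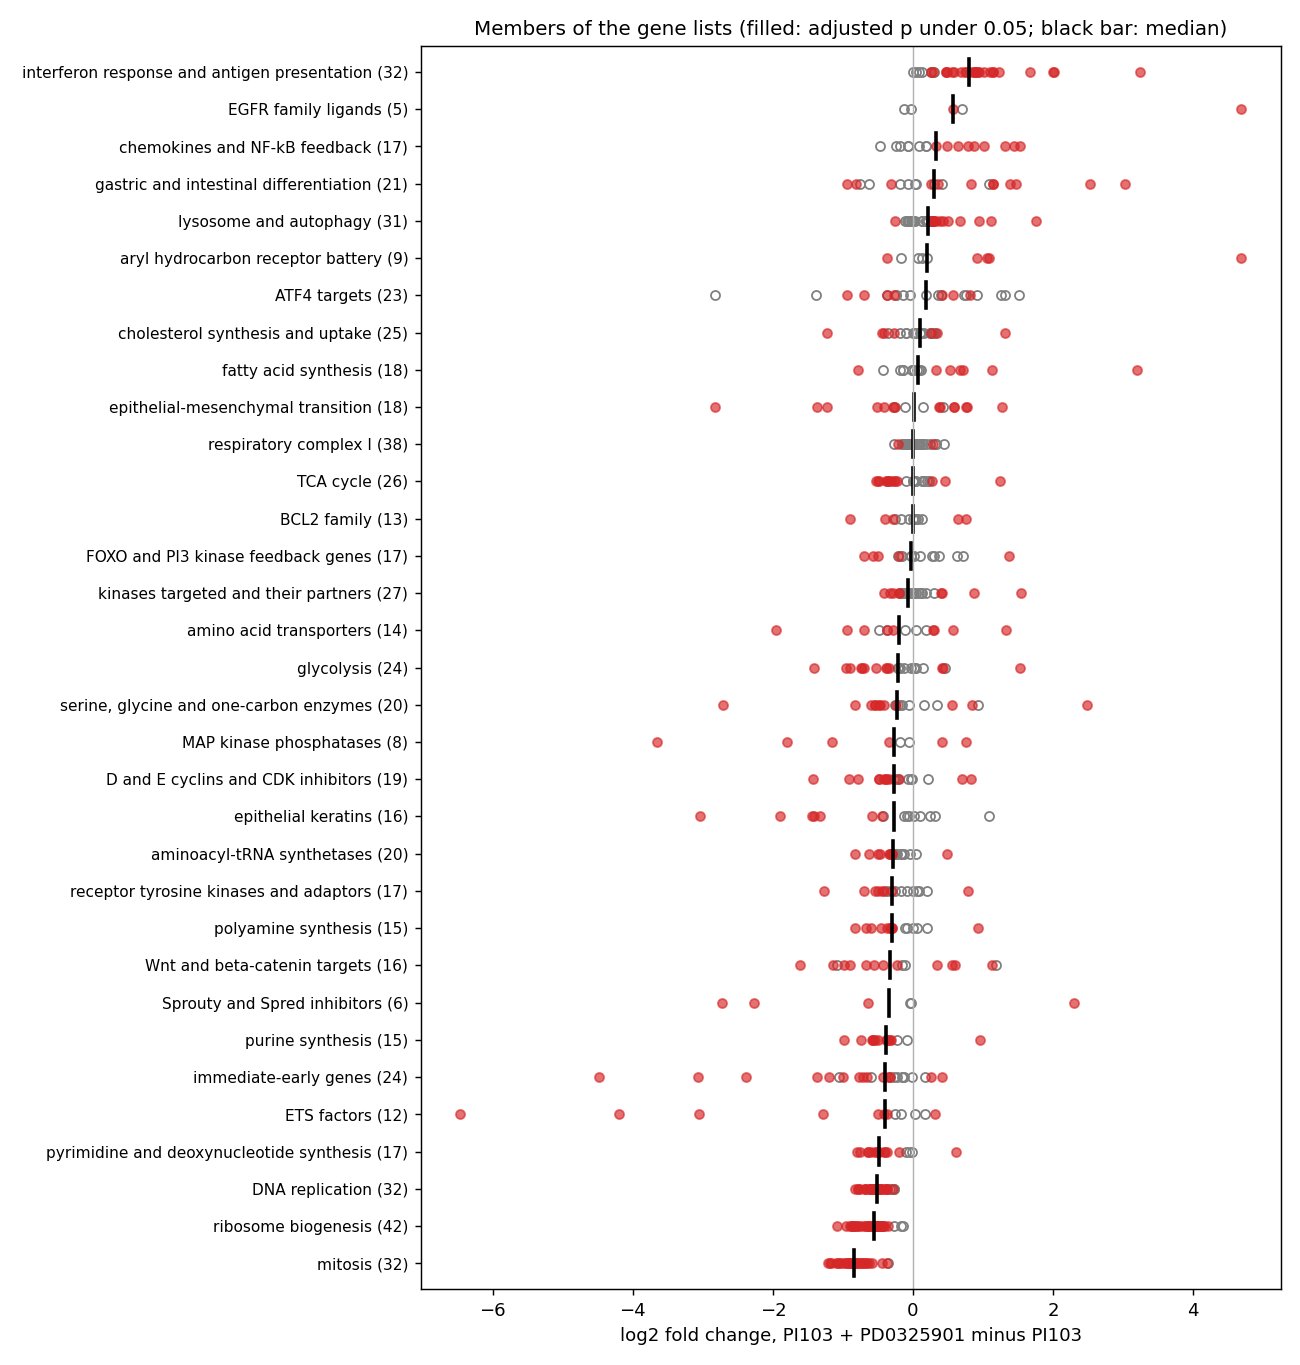
Log2 fold change, combination minus PI103, of every tested member of 33 gene lists. Filled points have an adjusted p under 0.05 and the black bar is the list median. Mitosis, DNA replication and ribosome biogenesis lie wholly below 0 and the interferon list lies wholly above 0, while respiratory complex I lies close around 0. Over all genes tested, 18.8% were called higher and 19.9% lower.

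Cell cycle genes were lower in the combination. CCND1, the cyclin D1 gene and a classical ERK target (chr11:69641087-69654474), was at 1160, 1050, 1080 and 979 CPM with PI103 and 511, 245, 420 and 407 CPM in the combination. Every combination library was below every PI103 library (-1.43, SE 0.16, adjusted p 1.27e-07). Of 19 tested cyclins of the D and E types, their kinases, inhibitors and E2F partners, 10 fell and 2 rose. Over all genes 19.9% were called lower and 18.8% higher. RBL1, the pocket protein p107, fell by 0.79 and the CDK4 inhibitor CDKN2D by 0.91, while CDKN2B, another CDK4 inhibitor, rose by 0.70 (SE 0.13) from 54.3 to 63.5 CPM to 83.2 to 126 CPM. Leaving out replicate 2 of the combination gave 7 falls and 1 rise.

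All 32 tested members of the mitosis list had a negative log2 fold change, and 31 (96.9%) passed the test, against 19.9% of all genes called lower. Their median was -0.847 and their range -1.21 to -0.36, with 0 called higher, also 0 by DESeq2 and at an unadjusted p under 0.05. TPX2, the spindle factor that activates Aurora A, was at 470, 473, 478 and 396 CPM with PI103 and 241, 98.1, 250 and 208 CPM in the combination (-1.19, SE 0.21, adjusted p 0.000131). ANLN, the actin-binding protein of the cleavage furrow, fell by 0.90 (SE 0.15), the phosphatase CDC25C by 1.17 (SE 0.20) and the microtubule depolymerase KIF2C by 1.10 (SE 0.20). Replicate 2 of the combination was the lowest in all 4. The median of the list over its members, on a log2 scale relative to the PI103 mean, was -1.74 in that library and between -0.724 and -0.547 in the other 3. Without it, 30 members were called lower and the median was -0.633. Against a minimum change of 1, tested with glmTreat of edgeR, 0 mitosis members passed (0 also at an unadjusted p under 0.05). In bulk RNA, fewer cells of a kind, such as cells in mitosis, and less RNA per cell cannot be told apart.

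DNA replication genes followed with smaller values. Of 32 tested, 27 (84.4%) were lower and 0 higher by edgeR, against 19.9% and 18.8% of all genes. At an unadjusted p under 0.05 and by DESeq2, 0 were higher as well, and the median was -0.519. MCM7, a subunit of the replicative helicase, was at 243 to 280 CPM with PI103 and at 169, 100, 155 and 155 CPM in the combination (-0.83, SE 0.13, adjusted p 1.58e-05). MCM5 and MCM2 fell by 0.78 and 0.79, and the origin-licensing factor CDC6 by 0.61 (SE 0.11). PI103 alone had raised MCM7 by 0.81, MCM5 by 0.73 and MCM2 by 0.61 against control, but had lowered CDC6 by 0.42 (adjusted p 0.00242), and the control mean of MCM7, 147 CPM, lay within the range of the combination libraries. PCNA, ORC6, POLE, CLSPN and CDC7 were below 0 without passing the test. Without replicate 2 of the combination 23 members were lower, with a median of -0.374.

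The cell cycle homology region, with the core TTTGAA, marks many promoters of genes expressed in G2 and mitosis. Searched on both strands, it was present in the 250 upstream bases of 12 of 25 mitosis genes with a promoter entry (48.0%), in 3704 of 27305 promoters (13.6%) and in 8.53% of those of the genes tested. These shares cover list members whether called or not, so they describe the list and not the change between groups. The window of CDC25C, whose fall is given above, held 0 matches. CDC20, the activator of the anaphase-promoting complex, is shown as an example chosen after its values were seen. It fell from 266 to 295 CPM to 60.4 to 168 CPM (-1.07, SE 0.24). The sequence is the plus strand of chr1:43358731-43358954 up to the first annotated exon, and the capitals mark the core, which stands in opposite orientations.
CDC20: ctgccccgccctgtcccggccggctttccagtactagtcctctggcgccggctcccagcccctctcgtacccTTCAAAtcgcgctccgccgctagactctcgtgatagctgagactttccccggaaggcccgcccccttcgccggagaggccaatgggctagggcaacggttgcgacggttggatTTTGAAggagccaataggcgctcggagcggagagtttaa

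**Figure D3:**
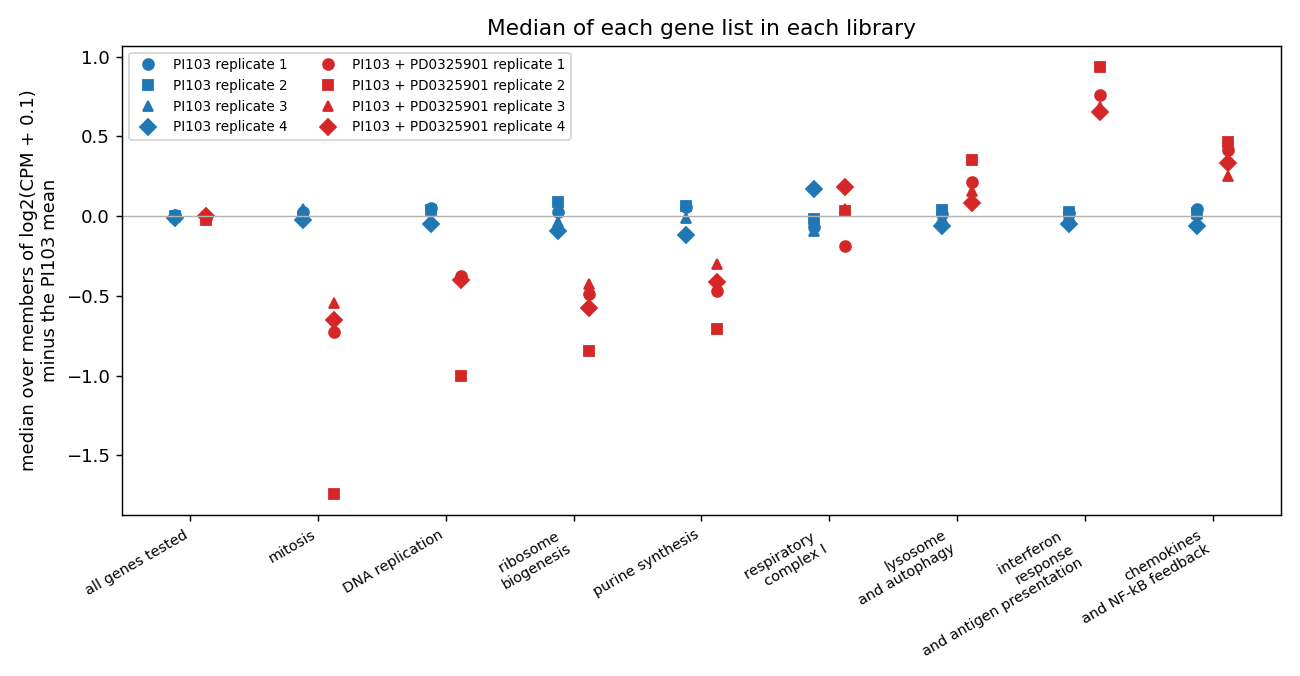
Median over the members of each gene list, per library, of log2 CPM (with 0.1 CPM added) minus the mean of the PI103 libraries. Mitosis falls to -1.74 in replicate 2 of the combination and to between -0.724 and -0.547 in the other combination libraries. The median of all tested genes stays between -0.0241 and 0.00592.

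Ribosome biogenesis is carried out in the nucleolus by RNA polymerase I and a large set of processing factors, and is a textbook output of mTOR, MYC and ERK signalling. Of 42 tested members, 39 (92.9%) were lower and 0 were higher, against 19.9% and 18.8% of all genes. By DESeq2 and at an unadjusted p under 0.05, 0 were higher as well. The median was -0.563, the range -1.09 to -0.135, and all 42 lay below 0. RRP12, a factor in export of both ribosomal subunits, was at 26.7, 29.2, 25.3 and 24.3 CPM with PI103 and 15.1, 8.25, 15.1 and 11.2 CPM in the combination (-1.09, SE 0.19, adjusted p 8.06e-05). The U3 RNA-binding protein RRP9 fell by 0.96 (SE 0.16), the rRNA methyltransferase FBL by 0.79 (SE 0.14) and UTP14A by 0.52 (SE 0.09). DKC1, NOP10 and RRN3 did not pass. Without replicate 2 of the combination 39 members were again lower, with a median of -0.469. The E-box CACGTG, the site of MYC and its relatives, was found in 4 of 35 upstream windows of these genes (11.4%), in 6.49% of all promoters and in 8.64% of those of the genes tested.

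Enzymes that supply nucleotides were lower as well. Of 15 purine synthesis genes tested, 12 fell and 1 rose, against 19.9% and 18.8% of all genes. Their median was -0.387, and 10 fell without replicate 2 of the combination. IMPDH2, the rate-limiting enzyme of guanine nucleotide synthesis, was at 282, 300, 277 and 256 CPM with PI103 and 169, 136, 191 and 167 CPM in the combination, with no overlap (-0.75, SE 0.11, adjusted p 9.69e-06). PFAS, which acts in the de novo purine pathway, fell by 0.98 (SE 0.16) and GART by 0.54 (SE 0.10), while the muscle-type adenylosuccinate synthase ADSSL1 rose by 0.96 (SE 0.17) from a low level of 0.989 to 1.42 CPM. Of 17 genes of pyrimidine and deoxynucleotide synthesis, 13 fell and 1 rose (median -0.488, or -0.338 with 10 falls without that library). The mitochondrial enzyme DHODH fell by 0.75 (SE 0.14) and thymidine kinase TK1 by 0.64 (SE 0.14), and the kinase CMPK1 rose by 0.62 (SE 0.14).

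Among 20 aminoacyl-tRNA synthetases, which charge tRNAs for protein synthesis, 8 fell and 1 rose (median -0.285). Their share of 45.0% is near the 38.7% of all genes called. The falls numbered 6 to 10 when single libraries were left out, and 6 without replicate 2 of the combination. FARSB fell from 55.3 to 65.2 CPM to 23.8 to 38.9 CPM (-0.82, SE 0.13), and VARS and KARS fell by 0.63 and 0.47. WARS, the tryptophanyl-tRNA synthetase and an interferon-inducible gene, was the member that rose, from 87.1 to 104 CPM to 122 to 159 CPM (0.48, SE 0.11). Of 15 genes listed under polyamine synthesis, 9 fell and 1 rose, against 19.9% and 18.8% of all genes. The list also holds genes of polyamine breakdown, so its count does not describe synthesis alone. Only 4 falls were left without replicate 2 of the combination. SAT1, which acetylates polyamines for export, fell by 0.83 (SE 0.13) and the spermine oxidase SMOX by 0.67 (SE 0.14). OAT, the ornithine aminotransferase of mitochondria, rose from 214 to 240 CPM to 333, 551, 393 and 431 CPM (0.93, SE 0.12, adjusted p 1.11e-06). ODC1 is the rate-limiting enzyme of the pathway. The ODC1 log2 fold change was -0.29 (SE 0.09, adjusted p 0.00974), and its adjusted p was 0.0583 without that library.

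Glycolysis genes were divided. Of 24 tested, 10 fell and 3 rose, with a median of -0.215, where 19.9% and 18.8% of all genes were called. Without replicate 2 of the combination 10 fell and 2 rose. SLC2A1, the glucose transporter GLUT1 (chr1:42925375-42959176), was at 1060, 983, 914 and 908 CPM with PI103 and 439, 303, 347 and 359 CPM in the combination. It was 2.67-fold lower, with no overlap (-1.42, SE 0.15, adjusted p 4.24e-08). Phosphofructokinase PFKP fell by 0.90 (SE 0.12) and the pyruvate kinase gene, listed as PKM2, by 0.74 (SE 0.10). The brain-type aldolase ALDOC rose from 3.87 to 6.05 CPM to 11.5, 11.5, 12.1 and, in replicate 2, 19.0 CPM (1.53, SE 0.17). In the TCA cycle and its feeder enzymes 11 of 26 tested fell and 3 rose, with a median of -0.0028. Without replicate 2 of the combination 9 fell and 2 rose. Cytosolic isocitrate dehydrogenase IDH1 had the smallest adjusted p of that list (2.87e-09): it stood at 284, 315, 317 and 329 CPM with PI103 and at 564, 910, 698 and 770 CPM in the combination (1.24, SE 0.11). The pyruvate dehydrogenase subunit PDHA1 fell by 0.49 (SE 0.09), IDH3A by 0.50 and pyruvate carboxylase PC by 0.53.

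Nuclear genes listed under respiratory complex I, NDUFA4 among them, were seldom called. Of 38 tested, 1 rose and 1 fell, a share of 5.26% against 38.7% of all genes, and the median was -0.00106. The rise of NDUFA5 (0.29) and the fall of NDUFV3 (-0.21) were both lost when single libraries were left out, replicate 2 of the combination among them. With the batch as a block 3 rose and 2 fell.

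Cholesterol genes were mixed, with 3 of 25 tested higher and 4 lower, a share of 28.0%. The sterol reductase TM7SF2 rose from 27.5 to 34.5 CPM to 68.1, 102, 68.3 and 69.2 CPM (1.32, SE 0.12). Mevalonate kinase MVK and phosphomevalonate kinase PMVK fell by 0.41 and 0.45. HMGCS1, an early enzyme of the pathway, was not called (0.26). Only 1 rise was left without replicate 2 of the combination or without replicate 1 of PI103, 5 were called without replicate 2 of PI103, and 6 with the batch as a block. In fatty acid synthesis 6 of 18 rose and 1 fell, a share of 38.9% that is close to the 38.7% of all genes. Without replicate 2 of the combination 5 rose. The elongase ELOVL7 rose from 8.17 to 10.8 CPM to 17.6 to 23.9 CPM (1.13, SE 0.14), while ELOVL6 fell by 0.78 (SE 0.11). FADS3 rose by 0.71, and malic enzyme ME1 had 5 counts with PI103 and 52 in the combination, a ratio of 9.79 (3.94 to 31.4).

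Serine, glycine and one-carbon enzymes had 9 falls and 3 rises among 20 tested (6 and 2 without replicate 2 of the combination). Over all genes 19.9% were called lower and 18.8% higher. GLDC, which cleaves glycine in mitochondria, gave the smallest adjusted p, 5.82e-09. It was at 5.24, 6.16, 5.28 and 7.33 CPM with PI103 and 23.3, 50.7, 25.5 and 35 CPM in the combination, a 5.60-fold difference with no overlap (2.48, SE 0.22). The folate enzyme MTHFD1 fell by 0.60 (SE 0.12) and AHCY by 0.55 (SE 0.11). ATF4 is the transcription factor of the amino acid response, which mTOR supports. Among its 23 tested targets 3 rose and 4 fell, a share of 30.4% against 38.7% of all genes, although the groups did not overlap in 13 targets (38.5% of all genes). In that list 1 rose and 2 fell without replicate 2 of the combination. The count of falls was also 2 without replicate 3 of the combination or replicate 1 or 2 of PI103. The pseudokinase TRIB3, an ATF4 target that averaged 31.1 CPM in control, had 18 counts over the PI103 libraries and 7 in the combination, a ratio of 2.73 (1.09 to 7.74), and was not called (adjusted p 0.55). SLC38A2, the main system A transporter, fell by 0.94 (SE 0.14), from 241 to 324 CPM to 113 to 159 CPM. SLC1A5, the glutamine carrier, fell by 0.70 (SE 0.16), while SLC3A2, the shared heavy chain of several transporters, rose by 0.57 (SE 0.11). Of 14 amino acid transporters tested, 5 fell and 4 rose, against 19.9% and 18.8% of all genes. The arginine transporter SLC7A2 fell by 1.96 (SE 0.29) and the glycine transporter SLC6A9 rose by 1.32 (SE 0.23). The 5 falls became 3 without replicate 2 or 4 of the combination, or replicate 2 or 3 of PI103. Without replicate 2 of the combination 3 transporters rose.

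Lysosome and autophagy genes were more often higher than lower, 14 against 1 of 31 tested, where 18.8% and 19.9% of all genes were called, with a median of 0.214. This set is controlled in part by TFEB and MITF, transcription factors that mTOR keeps in the cytoplasm. WIPI1, which binds the forming autophagosome, rose from 4.44 to 5.95 CPM to 14.4, 27.0, 15.6 and 14.5 CPM (1.76, SE 0.21, adjusted p 5.22e-07). The sialidase NEU1 rose by 0.95 (SE 0.15), the acid glucosidase GAA by 0.67 (SE 0.10) and MITF itself by 1.11 (SE 0.19). The count of rises was 9 without replicate 2 of the combination or without replicate 4 of PI103, and 19 with the batch as a block. Without replicate 2 of the combination 0 members were called lower. Annotated antisense exons cover 28.1% of the WIPI1 exon bases.

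In the BCL2 family, which sets the threshold for mitochondrial cell death, 2 of 13 tested rose and 3 fell, a share of 38.5% against 38.7% of all genes, and the same counts were obtained without replicate 2 of the combination. The death activators BMF and BIK rose by 0.76 (SE 0.16) and 0.64 (SE 0.13), BMF from 46.7 to 54.2 CPM to 74.3 to 105 CPM. The death activator PMAIP1, also called NOXA, fell by 0.90 (SE 0.23), from 11.7 to 15.2 CPM to 6.25 to 9.11 CPM. The survival gene BCL2L1 fell by 0.40 (SE 0.09), from 489 to 538 CPM to 369 to 430 CPM. Of the BCL2L1 exon bases, 43.0% have antisense annotation. PI103 alone had raised BMF by 2.15 against control, and the combination was above both single agents (1.15 over PD0325901, adjusted p 3.16e-05).

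Interferon-inducible genes and antigen presentation genes were higher in the combination. Of 32 tested, 26 (81.2%) passed the test upward, against 18.8% of all genes, and 0 downward, also 0 by DESeq2 and at an unadjusted p under 0.05. The median was 0.798, and all 32 lay above 0. IFI27, a mitochondrial protein induced by type I interferon (chr14:94104836-94116698), was at 4.78, 4.82, 4.94 and 5.09 CPM with PI103 and 18.4, 24.8, 17.2 and 18.2 CPM in the combination, 4.01-fold higher (2.00, SE 0.12, adjusted p 4.16e-12). Outside the list but among the 12 largest rises, CXCL10, an interferon-induced chemokine (chr4:76021117-76023497), rose 11.6-fold, from 0.507, 0.295, 0.771 and 0.485 CPM to 4.74, 6.67, 5.69 and 6.69 CPM (3.52, SE 0.22). BST2, the antiviral membrane protein tetherin, rose by 3.47 (SE 0.25), from 0.225 to 0.678 CPM to 3.96 to 6.94 CPM. The combination libraries were all above the PI103 libraries in each of these genes.

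IFIT1, a sensor of foreign RNA ends, rose from 38 to 44.0 CPM to 85.0, 93.8, 103 and 109 CPM (1.23, SE 0.12, adjusted p 1.68e-08). PSMB8, a catalytic subunit of the immunoproteasome, rose by 1.14 (SE 0.11), from 21.7 to 24.6 CPM to 42.2 to 63.5 CPM. Complement factor B, CFB, had the largest rise of the list: 3.00, 1.82, 1.85 and 2.10 CPM with PI103 and 18.8, 33.3, 16.0 and 14.7 CPM in the combination (3.24, SE 0.25). Annotated exons of C2 and a joined transcript on the same strand cover 45.5% of its exon bases, and 20.6% of those of PSMB8 have antisense annotation, so both levels are uncertain to that extent. IRF7, MX1, NLRC5, OAS3 and TAP2 were among the 6 members that did not pass, and class I HLA genes of the list share near-identical sequence, which makes their counts uncertain. The list median, on the log2 scale relative to the PI103 mean, was 0.651 to 0.757 in 3 combination libraries and 0.934 in replicate 2, and without that library 27 members were called higher, with a median of 0.696. For the genes named, PI103 alone was above control in IFI27 (1.34), CFB (2.55), PSMB8 (0.40), IFIT1 (0.90) and BST2 (1.5), while CXCL10 (-0.32, adjusted p 0.273) was not called. The combination was above PD0325901 alone in IFI27 (0.51, adjusted p 0.00258), CFB (1.53, adjusted p 5.61e-05), IFIT1 (0.70, adjusted p 0.000254) and BST2 (1.10, adjusted p 0.000972), while PSMB8 (0.02) and CXCL10 (0.17) did not pass that test.

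**Figure D4:**
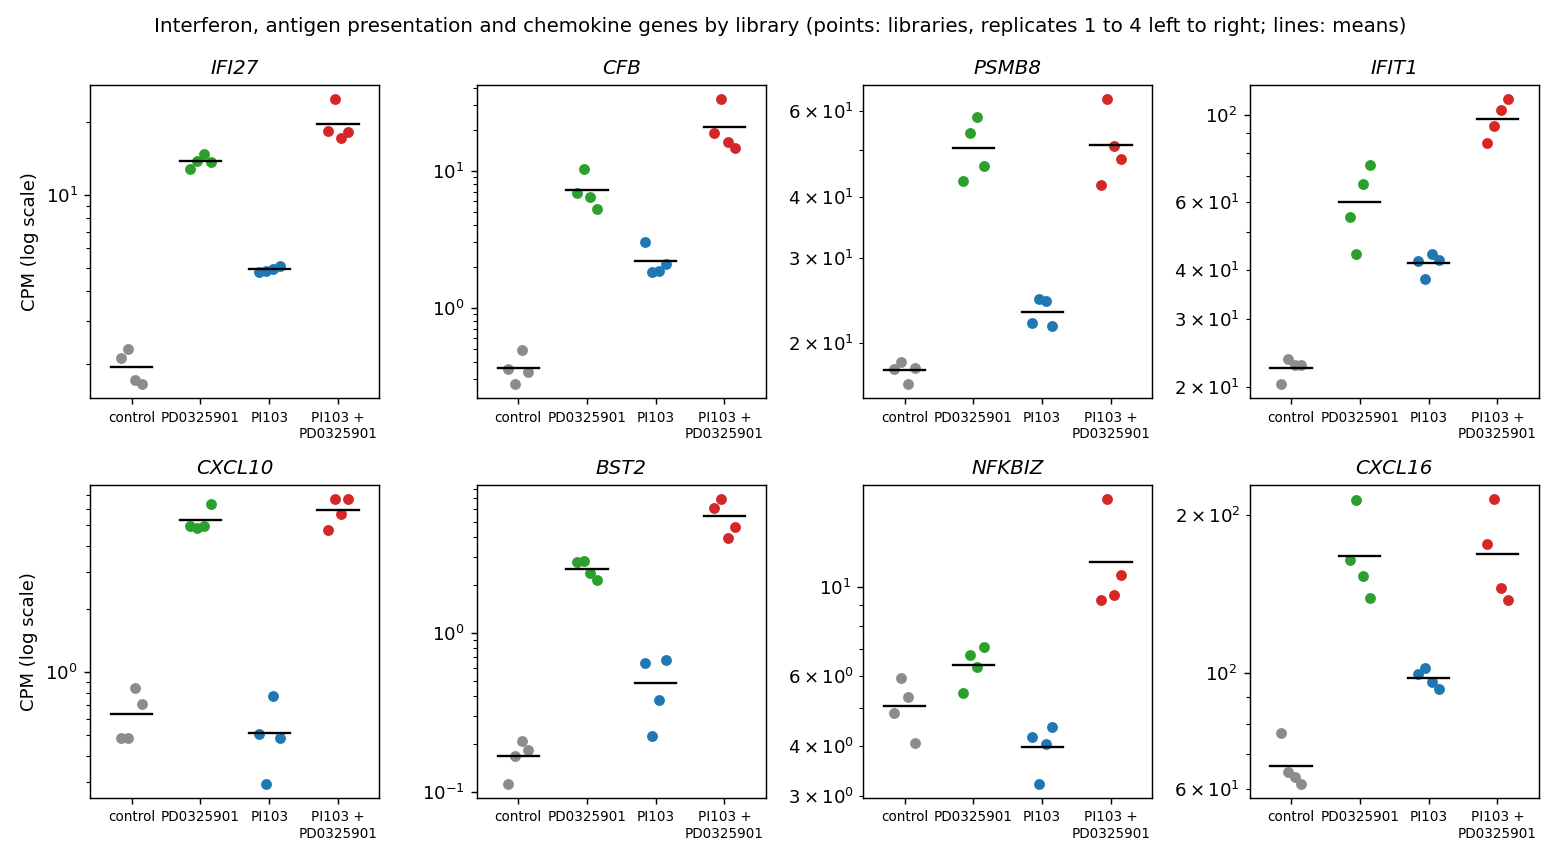
Levels of 8 interferon, antigen presentation and NF-kB genes in counts-per-million on a log axis, with the 4 libraries of each group as points (replicates 1 to 4 from left to right) and group means as lines. In all 8 genes each combination library lies above each PI103 library, as in IFIT1 at 85.0 to 109 CPM against 38 to 44.0.

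The interferon-stimulated response element is the promoter site through which type I interferon acts on its target genes. Its core, GAAA followed by any 2 bases and another GAAA, read on both strands, was present in the 250 upstream bases of 15 of 26 list members with a promoter entry (57.7%), in 839 of 27305 promoters of all genes (3.07%) and in 2.31% of those of the genes tested. The upstream sequences of 4 interferon-inducible genes are printed to show the element, up to the first annotated exon and on the strand of the gene (RefSeq, GRCh38.p14). They are IFIT1 (chr10:89392373-89392545, plus), IFIT3 (chr10:89327747-89327893, plus), ISG15 (chr1:1013247-1013422, plus) and CXCL10 (chr4:76023498-76023747, minus). IFIT3 and ISG15 were picked after their values were seen. The share above covers list members whether called or not, with OAS3 and TAP2 among the 15. That share describes the list and not the change between groups. Capitals mark the core or its reverse complement.
IFIT1: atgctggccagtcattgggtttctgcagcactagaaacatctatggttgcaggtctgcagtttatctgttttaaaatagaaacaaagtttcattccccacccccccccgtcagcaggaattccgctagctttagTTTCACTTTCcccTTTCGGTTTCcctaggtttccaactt
IFIT3: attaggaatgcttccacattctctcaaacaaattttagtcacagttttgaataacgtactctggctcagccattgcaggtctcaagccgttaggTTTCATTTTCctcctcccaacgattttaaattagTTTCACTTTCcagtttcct
ISG15: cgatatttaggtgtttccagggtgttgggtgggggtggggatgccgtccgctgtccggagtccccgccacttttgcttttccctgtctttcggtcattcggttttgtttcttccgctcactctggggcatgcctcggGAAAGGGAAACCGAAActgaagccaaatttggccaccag
CXCL10: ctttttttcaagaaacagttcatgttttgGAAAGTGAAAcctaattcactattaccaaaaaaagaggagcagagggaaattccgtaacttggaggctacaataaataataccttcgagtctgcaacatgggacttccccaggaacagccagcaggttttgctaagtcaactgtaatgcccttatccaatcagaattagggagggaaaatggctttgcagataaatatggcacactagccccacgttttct
IFIT1, IFIT3 and ISG15 each hold 2 matches, which overlap in ISG15, and CXCL10 holds 1. IFIT3 rose from 14.6 to 16.8 CPM to 28.1 to 32.0 CPM (0.93, SE 0.10), and ISG15, a ubiquitin-like protein, from 70.5 to 84.7 CPM to 106 to 114 CPM (0.47, SE 0.13).

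Chemokines and NF-kB feedback genes were higher in 9 of 17 tested members (52.9%), against 18.8% of all genes. By edgeR 0 were called lower, against 1 at an unadjusted p under 0.05 and 1 by DESeq2. The median was 0.327. NFKBIZ, the nuclear IkB protein that supports secondary NF-kB targets, was at 4.21, 3.23, 4.05 and 4.47 CPM with PI103 and 9.27, 16.6, 9.53 and 10.6 CPM in the combination (1.53, SE 0.21, adjusted p 3.1e-06). The NF-kB subunit RELB rose by 1.44 (SE 0.22) and the neutrophil chemokine CXCL2 by 1.31 (SE 0.21). CXCL16, a membrane-anchored chemokine, rose from 93.4 to 102 CPM to 138 to 215 CPM (0.79, SE 0.13). CXCL8, listed as IL8, was not called (-0.07). Without replicate 2 of the combination 7 members were higher.

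Genes of gastric and intestinal differentiation were higher in 9 of 21 tested members and lower in 3, against 18.8% and 19.9% of all genes, with the same counts without replicate 2 of the combination. CDH17, the liver-intestine cadherin, stood at 123, 108, 109 and 107 CPM with PI103 and 302, 331, 262 and 276 CPM in the combination, 2.63-fold higher (1.39, SE 0.10, adjusted p 1.15e-10). The membrane mucins MUC1 and MUC13 rose by 1.48 (SE 0.21) and 1.14 (SE 0.17), MUC1 from 37.1 to 41.9 CPM to 95.6, 173, 89.3 and 71.2 CPM. REG4, a secreted lectin of enteroendocrine and goblet cells, fell from 12.2 to 20.8 CPM to 7.80 to 9.43 CPM (-0.94, SE 0.13). The intestinal regulator CDX2 (0.05) and the gastric trefoil gene TFF1 (0.03) were not called. For CDH17 the difference between the combination and PD0325901 alone was -0.07 (SE 0.10, adjusted p 0.68), and that between PI103 alone and control was -0.06 (adjusted p 0.647).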

How the data were processed

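RNA-seq libraries were made from 0.8 µg of total RNA with a stranded mRNA kit, per the labels' protocols. The authors deposited a table of raw counts with 1 line per gene symbol, and the genome build is GRCh38 per the submitters' processing notes; the aligner, counter, annotation and strand setting are not given in the sources used here. The 5 closing tallies were dropped, and no other column of per-sample values was left out (0). Genes were kept by edgeR's filterByExpr (13947 of 23368, 99.989% of counts; 3199 had 0 counts in every library), normalized by TMM and modelled in edgeR 4.0.16 (R 4.3.3; estimateDisp and glmQLFit with robust settings, 1 coefficient per group, all 24 libraries, common biological coefficient of variation 0.131). Including all 6 groups gave a shared estimate of the spread. The contrast was tested by glmQLFTest, two-sided, and adjusted by Benjamini-Hochberg over all genes tested, with calls at an adjusted p under 0.05. The SE was derived as the size of the log2 fold change over the root of its F statistic. Levels in CPM use the TMM-scaled library size.

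Counting intervals are exact 95% intervals of the ratio of summed counts, are given where either group held at most 20 counts in all, and cover counting error only. No pair of libraries was a duplicate. Whether replicates were separate cultures is not stated beyond "biological", so p-values measure the spread between these libraries. The batch in the labels equals the replicate number, so it was used as a block in an alternative fit: same-numbered libraries of the 2 groups deviated together with a mean correlation of 0.0683, against -0.0227 for different numbers, and 1 of 4 pairs exceeded 0.1.

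The members, lists and rules were chosen with earlier results of these data known. Named genes were the 12 largest rises and 12 largest falls (adjusted p under 0.05, at least 5 CPM in the higher group, same sign in all 4 batches), up to 4 members per list with the smallest adjusted p, and 15 readout genes. Other members that are named were chosen after their values were seen. Alternatives were DESeq2 1.42.0, its size factors within edgeR, no filter, the block, a fit of the 8 libraries only, each library left out in turn and glmTreat against a change of 1. The edgeR steps were tested on simulated data. Coordinates and exon overlaps came from GENCODE 29 (GRCh38), and upstream sequences from RefSeq (GRCh38.p14). All 155 named genes matched GENCODE, and 20 of them had antisense and 5 same-strand annotation over more than 10% of their exon bases. Some genes that the naming rule selects are not reported here.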

Additional observations from a re-analysis of the deposited data

Results flagged for a closer look

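A value is given here when a library lay so far from the other 3 of its group that the gap, as a share of the group's range, exceeded Dixon's 95% critical value for 4 samples. Chance alone gives about 1 in 20 such groups, and 29 of the 310 gene and group pairs examined met it, 19 of them through replicate 2 of the combination. What set that library apart was not tested.

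In replicate 2 of the combination the flagged cell cycle genes other than CDKN2B were low. CDC6 stood at 85.5 CPM against 128 to 133 in the other 3 libraries, ANLN at 185 CPM against 342 to 370, and CDC25C at 9.49 CPM against 22.1 to 23.8. SLC38A2 was also low, at 113 CPM against 156 to 159, as was UCK2, at 69.4 CPM against 90.5 to 91.5. The remaining 14 values of that library were high. CYP1A1 stood at 29.4 CPM against 5.82 to 6.67, PDZK1IP1 at 46.7 CPM against 11.2 to 12.7, DMBT1 at 14.0 CPM against 3.44 to 5.03 and SLC5A12 at 8.60 CPM against 4.05 to 4.77. WIPI1 was at 27.0 CPM, IFI27 at 24.8 CPM, MUC13 at 34.3 CPM, UGT1A6 at 117 CPM and TM7SF2 at 102 CPM. CDKN2B was at 126 CPM, ALDOC at 19.0 CPM, GPT2 at 45.2 CPM, TRIM63 at 3.12 CPM and PIK3IP1 at 1.58 CPM. In replicate 3 of the combination MMP1 was at 0.0579 CPM against 0.0125 to 0.0202, a matter of single reads.

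Of the 9 values in PI103 libraries, 5 came from replicate 2: SLC6A9 at 5.55 CPM against 3.61 to 3.76, VARS at 61.5 CPM, NDUFV3 at 18.4 CPM, PMAIP1 at 11.7 CPM and NRG4 at 0.0347 CPM against 0 counts in the others. Replicate 4 held TPX2 at 396 CPM against 470 to 478, and PAGE4 at 22.2 CPM against 11.8 to 13.5. CDH17 was high in replicate 1, at 123 CPM against 107 to 109, and DUSP8 low in replicate 3, at 10.5 CPM against 13.7 to 14.0.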

How the results depend on the processing

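The 5391 calls became 5371 with DESeq2 size factors, 5032 without the filter, 5405 with the 8 libraries alone and 5621 by DESeq2. With the batch as a replicate block, which tests the pairing of same-numbered libraries, 6137 genes were called. Against a minimum change of 1 (glmTreat) 379 genes remained significant, 272 higher and 107 lower. Leaving out each library in turn gave 3934 to 5307 calls, 1934 to 2544 higher and 2000 to 2763 lower, the lowest without replicate 2 of the combination. The median of all genes stayed between -0.015 and 0 in every setting. None of the 155 named genes reversed, of which 148 were tested with the 8 libraries alone. Outside glmTreat, calls were lost in some settings by BCL6, GPT2, NDUFV3, NDUFA5, MYC, CDKN1B and ODC1. Calls were gained in some settings by NDUFA1, NDUFS6 and INSR. The EGFR ligand median turned from 0.574 to -0.0219 with the 8 libraries alone, where fewer members were tested. NRG4 rose by 7.03 in place of 4.68 without PI103 replicate 2, which held its only PI103 counts. Depths of 48.2 to 74.9 M counts leave genes with fewer than 20 counts in a group imprecise.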

Other observations

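Targets of Wnt and beta-catenin signalling moved in both directions, with 8 of 16 tested lower and 4 higher (median -0.325). Over all genes 19.9% were called lower and 18.8% higher. Without replicate 2 of the combination 7 members were lower. NKD1, an inhibitor of Dishevelled (chr16:50548330-50649249), was at 73.5, 65.6, 70.7 and 74.8 CPM with PI103 and at 26.8, 19.3, 24.3 and 22.8 CPM in the combination (-1.61, SE 0.13, adjusted p 8.74e-10). NOTUM, which removes the lipid from Wnt proteins, fell by 1.15 (SE 0.13) and CD44 by 0.89 (SE 0.13). DKK1, a secreted Wnt antagonist, rose from 655 to 746 CPM to 1350, 1470, 1430 and 1760 CPM (1.13, SE 0.10). Against control, PI103 alone had raised NKD1 by 1.15 and DKK1 by 0.43, so in NKD1 the combination returned below its control mean of 32.1 CPM while DKK1 went further above its control mean of 509 CPM.

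The aryl hydrocarbon receptor battery, which handles foreign chemicals, had 4 of 9 tested members higher and 1 lower. Over all genes 18.8% were called higher and 19.9% lower. CYP1A1 (chr15:74719542-74725610) was at 0.477, 0.503, 0.411 and 0.452 CPM with PI103, against a control mean of 12.7 CPM and 11.9 CPM with PD0325901, and at 6.03, 29.4, 5.82 and 6.67 CPM in the combination. UGT1A6 rose by 1.06 (SE 0.09), from 42.4 to 49.1 CPM to 85.0 to 117 CPM, although related UGT1A isoforms cover 44.0% of its exon bases on the same strand. ALDH3A1 rose by 0.92 (SE 0.11), while TIPARP fell by 0.37 (SE 0.09). The median of the list was 0.206, or 0.516 without PI103 replicate 4.

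Of 16 epithelial keratins tested, 7 fell (43.8%, against 19.9% of all genes) and 0 rose by edgeR, against 2 at an unadjusted p under 0.05 and 1 by DESeq2. Without replicate 3 of the combination or replicate 4 of PI103, 2 rose. The falls numbered 5 to 6 when single libraries were left out, and 6 without replicate 2 of the combination. KRT13 fell by 1.41 (SE 0.13), from 15.2 to 18.2 CPM to 5.31 to 7.36 CPM, and KRT6A by 1.33 (SE 0.38). KRT6B had 161 counts with PI103 and 20 in the combination, a ratio of 8.55 (5.36 to 14.4). KRT8, KRT18 and KRT19, the simple-epithelium keratins, lay between -0.12 and -0.05 and were not called. Genes of epithelial-mesenchymal transition were split, 7 higher and 7 lower of 18 tested, where 18.8% and 19.9% of all genes were called. Without replicate 2 of the combination 5 were higher and 6 lower. The membrane protease MMP14 rose by 0.77 (SE 0.10), from 317 to 335 CPM to 488 to 625 CPM, and the urokinase receptor PLAUR by 0.76 (SE 0.14). TGFBI, a matrix protein induced by TGF-beta, fell by 1.36 (SE 0.21), and MMP1 had 50 counts with PI103 and 7 in the combination, a ratio of 7.59 (3.42 to 19.8).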
